A study of Mus musculus with 9 samples.

Results

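The genes that copy the genome before a cell divides were followed in jejunal crypts of mice. The set held 40 genes of DNA replication, chosen by symbol for their roles in origin licensing, at the replication fork and in the supply of nucleotides, out of 23951 genes in each expression table. The choice was made with earlier results of these data known. All 40 were found in both tables, and all 40 passed the filter on low values. RNA was sequenced from 9 libraries, 3 in each of 3 groups numbered 0 to 2. The double mutants were Smad4f/f; Ex3f/+;Villin-CreER(T2) mice, in which tamoxifen removes Smad4, through which BMP and TGF-beta receptors both act on genes. The same recombinase excises exon 3 of 1 allele, which is background knowledge of the Ctnnb1 exon 3 allele and leaves a beta-catenin that escapes degradation. The Smad4 KO mice were Smad4f/f;Villin-CreER(T2) and also received tamoxifen. Villin-CreER(T2) is active in the epithelium of the intestine and not in the tissue beneath it. Both mutant groups were injected on 4 consecutive days and sampled 1 day later. The control mice are described as given vehicle in the sample labels and as uninjected in the design text, and their genotype is not stated. Tamoxifen and the recombinase therefore cannot be told apart from the genotype. Ages were not given, and the labels do not say whether each library came from a separate mouse, so p-values measure the spread between these libraries.

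Replication begins with licensing in G1, when the origin recognition complex, Cdc6 and Cdt1 load the MCM helicase onto DNA. In S phase, Mcm10, Cdc45 and the GINS complex switch the helicase on, primase and the polymerases copy both strands, and a sliding clamp keeps the polymerases on their template. E2F factors drive transcription of many of these genes as cells enter S phase. In the small intestine, division is confined to the crypt, where stem cells and their transit-amplifying daughters lie, and cells stop dividing as they move onto the villus and become enterocytes. In bulk RNA from crypts, more cells in S phase and more transcript in each such cell cannot be told apart.

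Levels were deposited as FPKM, read numbers scaled for transcript length and library size, so they can be set against each other between genes. The double mutants and the Smad4 KO libraries were each deposited with the same 3 controls in a table scaled on its own. A control value therefore differs slightly between tables, by 1.03, 1.06 and 1.04 times in controls 0, 1 and 2. Smad4 averaged 10.4 ± 0.6399 FPKM in double mutants against 52.04 ± 5.96 FPKM in their controls, and 10.6 ± 0.5603 FPKM in Smad4 KO libraries against 49.8 ± 5.02 FPKM in controls (SD, n = 3 each). Summed FPKM per library lay between 568081 and 758719, and between 11196 and 11935 genes reached 1 FPKM. FPKM values do not hold read numbers, so the depth of a library is unknown and counting error cannot be stated. Sex was inferred from the level of Xist against the summed Y-linked genes Ddx3y, Uty, Kdm5d and Eif2s3y. By this, each group held libraries of both sexes, with 2 female and 1 male in each mutant group and 1 female and 2 male among the controls. The 6 epithelial markers (Epcam, Cdh1, Vil1, Krt8, Krt18 and Krt20) and all 5 crypt stem cell markers (Lgr5, Olfm4, Ascl2, Smoc2 and Axin2) were above 1 FPKM in every library. Summed FPKM of the 13 stromal and blood markers came to 84.0, 6.66 and 9.003 in double mutants 0, 1 and 2 and to 26.3, 9.37 and 129.7 in Smad4 KO 0, 1 and 2, against 6.74 to 12.8 in the controls over both tables. Between 1 and 7 of these 13 markers reached 1 FPKM in a library, and Col1a1, Col1a2, Acta2, Lum, Myh11 and Cdh5 were each listed at 0 in at least 1 library. The part of that RNA in the results below was not tested.

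In the control crypts of the double mutant table, mean levels ran from 3.26 ± 0.525 FPKM for Orc1 to 58.1 ± 11.8 FPKM for Pcna (SD, n = 3). Low levels were shared by Orc1, Gins3 at 3.74 ± 0.234 FPKM and Cdc6 at 4.07 ± 0.406 FPKM. High levels were shared by Pcna, Mcm6 at 54.9 ± 16.5 FPKM and Pold2 at 46.5 ± 4.904 FPKM. Pcna was above Pold2 in each control, and Mcm6 was above Pcna only in control 1. Genes whose products sit in the same complex were not at equal levels. Among the 6 genes of the MCM hexamer, Mcm4 was lowest in all 9 libraries, and the highest gene stood 1.80, 1.81 and 2.02 times above it in double mutants 0, 1 and 2. In Smad4 KO 0, 1 and 2 that ratio was 1.75, 2.003 and 1.71, against 2.004, 2.80 and 2.17 in controls 0, 1 and 2. Gins3 was the lowest of the 4 GINS genes in every library, and Pola1, the catalytic subunit of polymerase alpha, was the lowest of the 4 genes of the polymerase alpha-primase complex in every library.

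**Figure D1:**
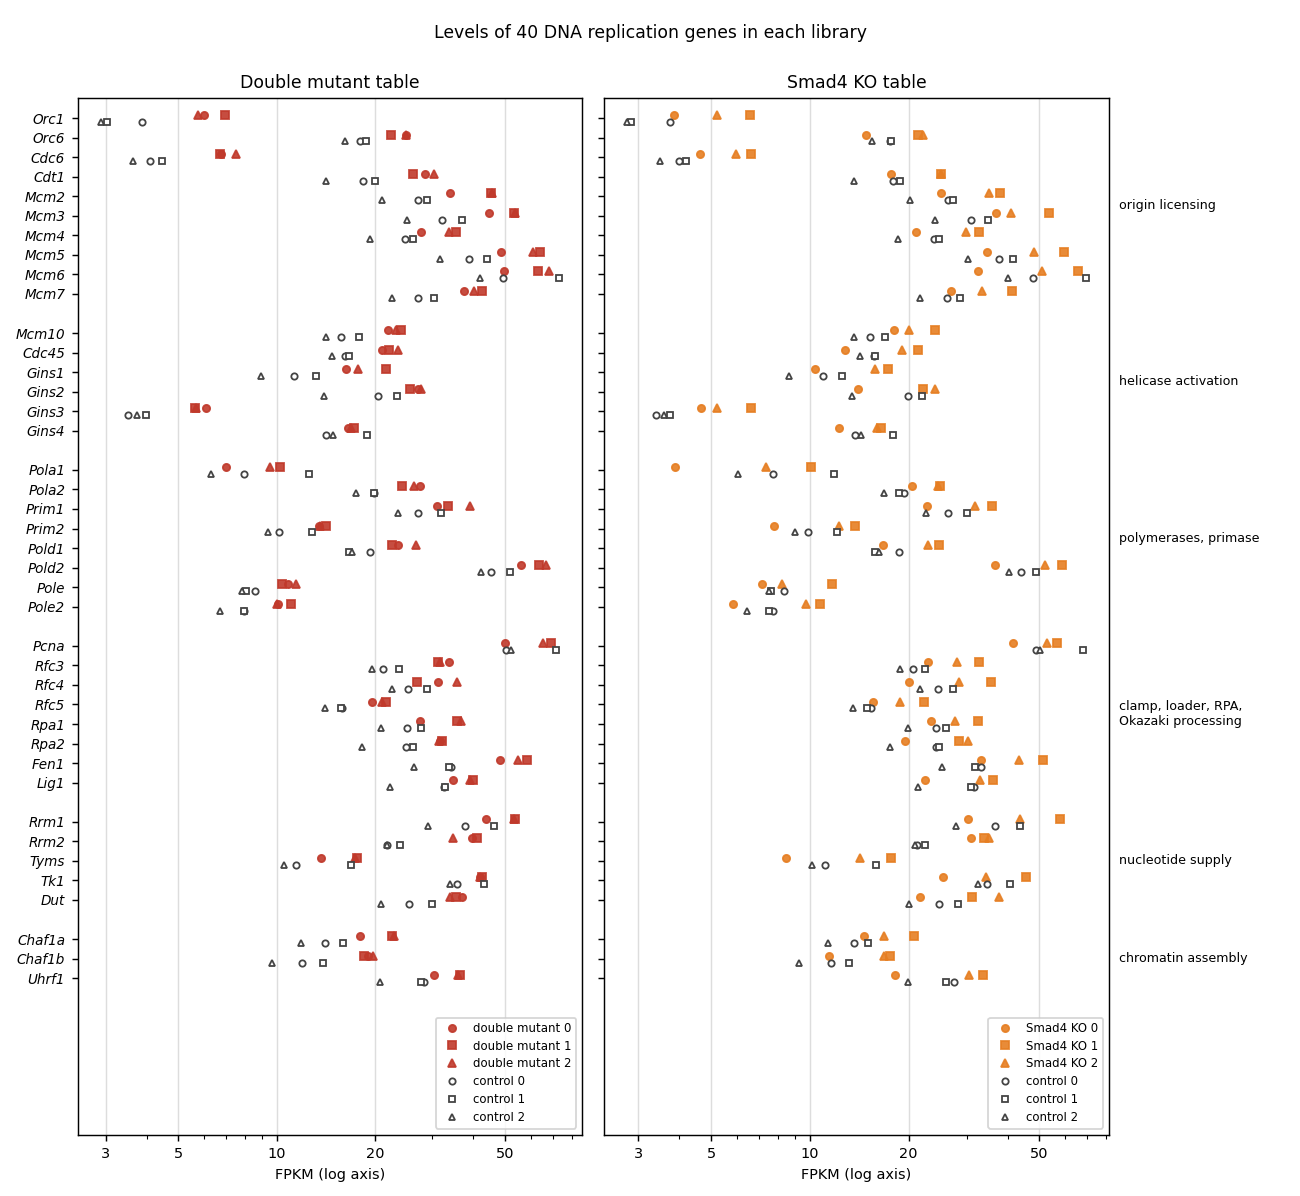
FPKM (log axis) of the 40 replication genes, grouped by role, in the double mutant table (left) and in the Smad4 KO table (right). Filled symbols are mutant libraries and open symbols are the controls of the same table, with the symbol shape giving the library number; the double mutants sit to the right of all controls for 30 genes, and Smad4 KO 0 is the leftmost filled symbol for all 40.

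Promoter sequence was not itself used to choose the genes. They were chosen for roles whose genes are often driven by E2F factors, so the E2F share below is not independent of the choice. RefSeq gave windows of 300 bases on GRCm38.p6, from 250 before to 50 after a gene start, for 34 of the 40 genes; Mcm4, Gins1, Gins2, Gins4, Prim2 and Pole were not matched. These 34 genes had 40 windows, since Lig1, Fen1, Mcm7, Pold2 and Uhrf1 have more than 1 start, and a gene was counted when any of its windows held a word. The search covered both strands. An E2F word (TTTGGCGC, TTTCCCGC, TTTCGCGC or TTTGCCGC) was found for 14 of the 34 genes, 41.2%, against 2.61% of 27025 genes with a window. These 14 genes were Orc1, Cdc6, Cdt1, Mcm3, Mcm5, Mcm6, Mcm7, Gins3, Pola1, Pold1, Pole2, Rfc3, Lig1 and Uhrf1. The word CCAAT was found for 61.8% of the 34 genes against 41.1% of all genes with a window, and the GC box GGGCGG for 76.5% against 38.2%. The E-box CACGTG was found for 17.6% against 8.09%. The cell cycle homology words TTTGAA or TTTAAA were found for 26.5% against 30.6%. The median GC content was 59.2% in the members' windows and 52.7% over all promoters, and these counts are not corrected for it. Words of different motifs may overlap in part and were each counted for their own motif, and in Mcm5 and Mcm6 E2F words on opposite strands overlap each other. Of the members called in the double mutants, 9 of the 19 with a window held an E2F word, and 5 of the 15 others did.

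The bases before the start are shown for 5 genes on which the results below turn, written 5′ to 3′ in the direction of the gene, with E2F words in capitals. They are Orc1 (chr4:108579204-108579453, plus strand), Cdc6 (chr11:98907901-98908150, plus strand) and Gins3 (chr8:95633309-95633558, plus strand), which rose in the double mutants. Mcm6 (chr1:128359706-128359955, minus strand) has 3 words and was not called in either mutant group. Rrm2 (chr12:24708004-24708253, plus strand) has none of the 4 words in its window and had the smallest p of all 40 genes in both comparisons. A word in a window is a description of its letters, not of a bound factor.
Orc1: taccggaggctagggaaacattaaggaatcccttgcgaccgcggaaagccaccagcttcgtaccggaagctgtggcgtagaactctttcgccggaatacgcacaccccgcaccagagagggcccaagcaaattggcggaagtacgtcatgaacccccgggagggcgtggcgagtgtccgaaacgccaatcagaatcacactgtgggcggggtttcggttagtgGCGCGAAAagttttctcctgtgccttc
Cdc6: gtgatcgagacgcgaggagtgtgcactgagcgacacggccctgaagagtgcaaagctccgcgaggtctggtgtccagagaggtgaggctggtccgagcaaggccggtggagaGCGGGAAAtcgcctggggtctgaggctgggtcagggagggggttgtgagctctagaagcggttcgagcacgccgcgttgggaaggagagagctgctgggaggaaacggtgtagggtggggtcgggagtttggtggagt
Gins3: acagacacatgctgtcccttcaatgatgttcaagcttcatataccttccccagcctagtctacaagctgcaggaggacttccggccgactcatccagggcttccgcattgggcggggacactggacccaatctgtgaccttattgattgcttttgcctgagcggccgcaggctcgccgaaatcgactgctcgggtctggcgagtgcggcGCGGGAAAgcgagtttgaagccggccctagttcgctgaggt
Mcm6: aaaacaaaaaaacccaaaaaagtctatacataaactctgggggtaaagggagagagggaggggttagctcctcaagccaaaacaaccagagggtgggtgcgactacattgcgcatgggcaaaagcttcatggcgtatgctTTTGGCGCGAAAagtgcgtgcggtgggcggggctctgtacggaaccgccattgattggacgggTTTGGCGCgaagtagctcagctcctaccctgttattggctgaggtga
Rrm2: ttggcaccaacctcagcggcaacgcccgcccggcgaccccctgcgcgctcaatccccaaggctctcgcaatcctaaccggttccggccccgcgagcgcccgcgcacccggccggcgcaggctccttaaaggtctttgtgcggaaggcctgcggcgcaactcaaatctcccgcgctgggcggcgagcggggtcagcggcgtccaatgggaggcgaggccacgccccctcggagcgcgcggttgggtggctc

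In the double mutants 21 of the 40 replication genes rose and none fell. A gene was called where its adjusted p from limma on log2(FPKM + 1) was below 0.05, with adjustment over all 11762 genes tested. Against the 21 of 40 called higher and 0 lower, 9.39% of all genes tested were called higher and 9.09% lower in that comparison. The estimate was above 0 for 40 of 40, with a median log2 fold change of 0.44 and a range of 0.03 to 0.77, against a median of -0.001 over all genes. The median of the members corresponds to 1.36-fold. All 3 double mutants lay above all 3 controls for 30 genes, where 21.3% of all genes tested did so, and none lay below. Double mutants 0, 1 and 2 stood at median ratios of 1.33, 1.42 and 1.44 to the control mean.

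The licensing genes moved most by their median, with 7 of 10 called and a median log2 fold change of 0.63. Orc1, the large ATPase subunit of the origin recognition complex, had 5.99, 6.95 and 5.76 FPKM in double mutants 0, 1 and 2, against 3.86, 3.02 and 2.897 FPKM in controls 0, 1 and 2 (log2 fold change 0.77, SE 0.13, adjusted p = 0.0201). The groups did not overlap, and the means stood 1.91-fold apart. Orc6, the smallest subunit of the complex, was at 24.9, 22.3 and 24.9 FPKM in double mutants against 18.04, 18.8 and 16.2 FPKM in controls (log2 fold change 0.43, SE 0.0958, adjusted p = 0.0338). The loading factor Cdc6 reached 6.75, 6.73 and 7.49 FPKM in double mutants against 4.11, 4.46 and 3.65 FPKM in controls (log2 fold change 0.66, SE 0.11, adjusted p = 0.0181). Its partner Cdt1, which brings the helicase to the origin, reached 28.5, 26.2 and 30.3 FPKM in double mutants against 18.4, 19.997 and 14.2 FPKM in controls (log2 fold change 0.67, SE 0.14, adjusted p = 0.0289). For Orc6, Cdc6 and Cdt1, as for Orc1, every double mutant was above every control.

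Of the 6 genes of the MCM hexamer itself, 3 were called. Mcm2 had 33.9, 45.3 and 45.6 FPKM in double mutants against 27.1, 28.8 and 21.03 FPKM in controls (log2 fold change 0.68, SE 0.17, adjusted p = 0.04197). Mcm3 had 44.7, 53.3 and 53.7 FPKM in double mutants against 32.01, 36.96 and 25.2 FPKM in controls (log2 fold change 0.68, SE 0.16, adjusted p = 0.0367). Mcm7 had 37.5, 42.7 and 40.2 FPKM in double mutants against 27.1, 30.4 and 22.6 FPKM in controls (log2 fold change 0.58, SE 0.13, adjusted p = 0.0321). In each, double mutant 0 was the lowest of its group and still above control 1, the highest control. Mcm5 had a log2 fold change of 0.59 and an adjusted p of 0.0522, just missing the threshold, and Mcm4 one of 0.45 at an adjusted p of 0.08704. Mcm6, which was not called, had 49.6, 62.97 and 68.03 FPKM in double mutants against 49.4, 73.4 and 41.9 FPKM in controls, and control 1 was above all 3 double mutants (log2 fold change 0.16, adjusted p = 0.649).

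Among the 6 genes that turn the loaded helicase on, 4 were called. Mcm10, which is needed for the helicase to begin unwinding, was at 21.999, 24.1 and 23.1 FPKM in double mutants and 15.8, 17.9 and 14.2 FPKM in controls (log2 fold change 0.51, SE 0.11, adjusted p = 0.0287). Cdc45, which joins MCM and GINS in the active helicase, was at 20.97, 22.1 and 23.6 FPKM in double mutants and 16.2, 16.7 and 14.8 FPKM in controls (log2 fold change 0.46, SE 0.0898, adjusted p = 0.0254). Within GINS, 2 of the 4 genes were called. Gins1 had 16.3, 21.7 and 17.7 FPKM in double mutants against 11.3, 13.2 and 8.98 FPKM in controls (log2 fold change 0.69, SE 0.17, adjusted p = 0.0392). Gins3 had 6.07, 5.64 and 5.66 FPKM in double mutants against 3.505, 3.97 and 3.74 FPKM in controls (log2 fold change 0.52, SE 0.10, adjusted p = 0.0241). The groups stood apart for both. Gins2 was not called, with a log2 fold change of 0.49 (adjusted p = 0.113), nor was Gins4, with 0.08 (adjusted p = 0.653).

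The polymerase and primase genes had 4 of 8 called and a median log2 fold change of 0.39. Pola2, the accessory subunit of polymerase alpha, had 27.4, 24.2 and 26.3 FPKM in double mutants against 19.9, 19.9 and 17.5 FPKM in controls (log2 fold change 0.43, SE 0.0947, adjusted p = 0.0327). Pold1, the catalytic subunit of the lagging-strand polymerase delta, had 23.6, 22.5 and 26.7 FPKM in double mutants against 19.3, 16.7 and 16.99 FPKM in controls (log2 fold change 0.44, SE 0.10, adjusted p = 0.0374). Both were raised in all 3 double mutants. Pole, the catalytic subunit of the leading-strand polymerase epsilon, had 10.9, 10.4 and 11.4 FPKM in double mutants against 8.61, 8.09 and 7.85 FPKM in controls (log2 fold change 0.37, SE 0.0864, adjusted p = 0.03603). Its accessory subunit Pole2 had 10.1, 11.1 and 10.04 FPKM in double mutants against 7.95, 7.97 and 6.72 FPKM in controls (log2 fold change 0.42, SE 0.10, adjusted p = 0.0395). Again no control reached the lowest double mutant. The primase subunits Prim1 and Prim2 and the accessory subunit Pold2 had log2 fold changes between 0.32 and 0.41 and were not called. Pola1 had 7.02, 10.3 and 9.54 FPKM in double mutants and 7.97, 12.5 and 6.31 FPKM in controls, with control 1 above and control 2 below every double mutant (log2 fold change 0.03, adjusted p = 0.939).

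Of the 8 genes for the clamp, its loader, the single-strand binding protein RPA and the joining of Okazaki fragments, 3 were called. Fen1, the nuclease that trims the flaps between Okazaki fragments, had 48.2, 58.3 and 54.9 FPKM in double mutants against 34.3, 33.7 and 26.4 FPKM in controls (log2 fold change 0.76, SE 0.14, adjusted p = 0.0207). The clamp loader subunit Rfc3 had 33.7, 31.1 and 31.6 FPKM in double mutants against 21.2, 23.8 and 19.7 FPKM in controls (log2 fold change 0.56, SE 0.09798, adjusted p = 0.0203). Rfc5, another small subunit of the loader, had 19.6, 21.7 and 21.1 FPKM in double mutants against 15.8, 15.8 and 14.1 FPKM in controls (log2 fold change 0.43, SE 0.0895, adjusted p = 0.0289). All 3 genes had groups that did not overlap. Rfc4, Rpa1, Rpa2 and Lig1, the ligase of the lagging strand, had log2 fold changes between 0.28 and 0.45 and were not called. Pcna, the sliding clamp and a common marker of dividing cells, had 50.1, 69.3 and 65.4 FPKM in double mutants and 50.3, 71.7 and 52.3 FPKM in controls (log2 fold change 0.09, adjusted p = 0.764). Its groups overlapped.

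Of the 5 genes that supply nucleotides, only Rrm2 was called, the small subunit of ribonucleotide reductase that cells make in S phase. It had 39.6, 41.02 and 34.7 FPKM in double mutants against 21.8, 23.8 and 21.7 FPKM in controls, 1.71-fold between means (log2 fold change 0.75, SE 0.0978, adjusted p = 0.0127). The large subunit Rrm1 had 43.8, 53.7 and 53.3 FPKM in double mutants against 37.8, 46.3 and 29.1 FPKM in controls and was not called (log2 fold change 0.42, adjusted p = 0.151). The ratio of Rrm1 to Rrm2 was 1.11, 1.31 and 1.54 in double mutants against 1.73, 1.95 and 1.34 in controls, so the groups overlapped in it. Dut, which clears dUTP, was at 36.9, 35.3 and 34.1 FPKM in double mutants and 25.5, 29.9 and 20.9 FPKM in controls, apart in every library but with an adjusted p of 0.0603 (log2 fold change 0.48). Tyms, which makes thymidylate, and Tk1, which salvages thymidine, had log2 fold changes of 0.32 and 0.17 and were not called. The 3 genes for chromatin behind the fork had a median log2 fold change of 0.57. Both subunits of the histone chaperone CAF-1 were called. Chaf1a had 18.01, 22.5 and 22.9 FPKM in double mutants against 14.1, 15.96 and 11.9 FPKM in controls (log2 fold change 0.57, SE 0.14, adjusted p = 0.0439). Chaf1b had 19.003, 18.5 and 19.7 FPKM in double mutants against 11.98, 13.9 and 9.696 FPKM in controls (log2 fold change 0.65, SE 0.13, adjusted p = 0.0277). For both, every double mutant was above every control. Uhrf1, which recognises newly copied methylated DNA, had a log2 fold change of 0.42 (adjusted p = 0.0979).

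**Figure D2:**
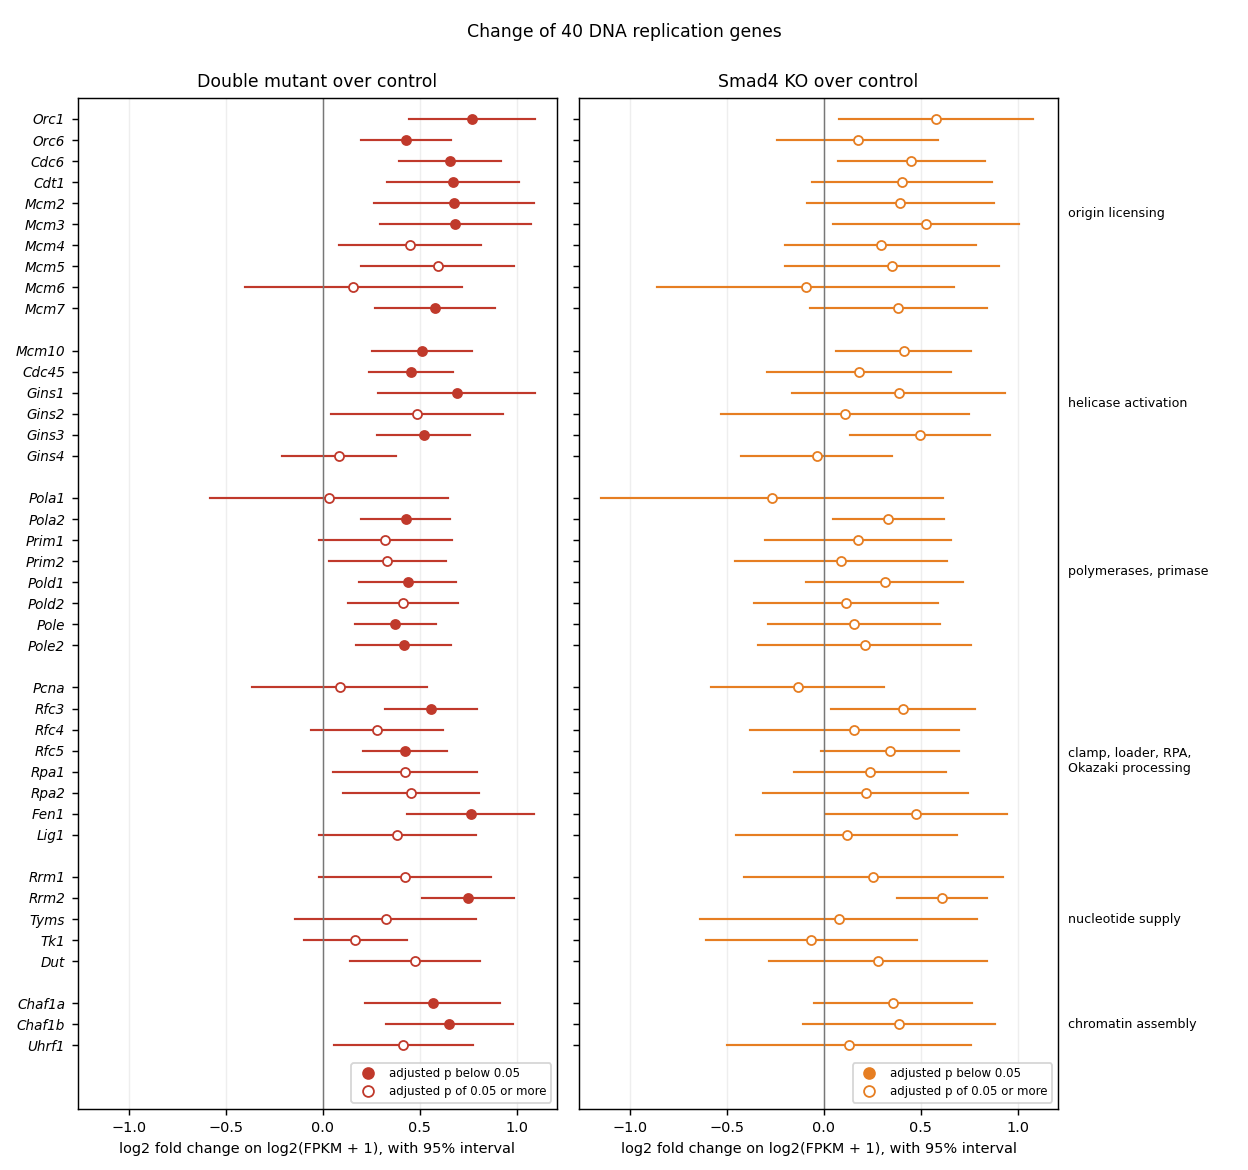
Log2 fold change on the log2(FPKM + 1) scale, with its 95% interval, of each replication gene in double mutants over control (left) and in Smad4 KO over control (right); filled points have an adjusted p below 0.05. All 40 points are above 0 on the left, with 21 filled, and 35 are above 0 on the right, with none filled.

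The genes that stayed near the control level had the same highest library, control 1. A high control lowers a fold change by calculation, so this is not a separate result. Mcm6, Gins4, Pola1, Pcna and Tk1 had the 5 smallest log2 fold changes in the double mutants, from 0.03 to 0.17, and for these 5 genes and no other member control 1 was the highest of the 6 libraries. Control 1 was the highest control for 33 of the 40 genes in this table, and control 2 the lowest for 36. Leaving out control 1 gave 15 called members with a median log2 fold change of 0.52, of which 13 were among the 21. Every library carried weight in the count: 6 members were called without control 0, 7 without control 2, none without double mutant 0, 1 (Rrm2) without double mutant 1 and none without double mutant 2. The calls over all genes were fewer too: the share called higher was 5.61%, 5.83% and 4.55% without controls 0, 1 and 2, and 0.667%, 2.87% and 0.153% without double mutants 0, 1 and 2. The median log2 fold change of the members stayed between 0.36 and 0.52 with any 1 library left out.

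In the Smad4 KO libraries no replication gene passed the test. limma called 0 of 40, where 0.00844% of the 11849 genes tested, 1 gene, were called higher and 3 genes lower. The estimate was above 0 for 35 of 40 genes, with a median log2 fold change of 0.27 and a range of -0.27 to 0.61, against a median of -0.003 over all genes. At an unadjusted p below 0.05, 9 members were higher and 0 lower, where 9.76% of all genes tested were higher. All 3 Smad4 KO libraries lay above all 3 controls for 10 members, where 14.2% of all genes did so. A fit of all 9 libraries together called 1 of 40 members, Rrm2, where 2.40% of all genes were called higher, so the members' share was near that of all genes.

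Rrm2 had the smallest p of the 40 genes here too. It was at 30.97, 33.8 and 35.2 FPKM in Smad4 KO 0, 1 and 2 against 21.2, 22.5 and 20.8 FPKM in controls 0, 1 and 2, 1.55-fold between means (log2 fold change 0.61, SE 0.0942, adjusted p = 0.106). Every Smad4 KO library was above every control, but the adjusted p missed the threshold. With all 9 libraries in 1 fit its adjusted p was 0.0267. The nucleotide supply gene with the next smallest p, Dut, was at 21.7, 31.3 and 37.6 FPKM in Smad4 KO libraries and 24.7, 28.2 and 20.02 FPKM in controls, with overlapping groups (adjusted p = 0.541).

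Among the licensing genes, Cdc6 had 4.63, 6.63 and 5.95 FPKM in Smad4 KO libraries against 3.98, 4.21 and 3.497 FPKM in controls (log2 fold change 0.45, adjusted p = 0.209). Orc1 had 3.86, 6.57 and 5.22 FPKM in Smad4 KO libraries against 3.75, 2.85 and 2.78 FPKM in controls (log2 fold change 0.58, adjusted p = 0.216). In both, the groups did not overlap, and Smad4 KO 0 was the mutant library nearest to the controls. Of the genes that activate the helicase, Gins3 had 4.66, 6.61 and 5.23 FPKM in Smad4 KO libraries against 3.399, 3.75 and 3.58 FPKM in controls (log2 fold change 0.49, adjusted p = 0.1804). Mcm10 had 18.1, 24.1 and 19.99 FPKM in Smad4 KO libraries against 15.3, 16.9 and 13.6 FPKM in controls (log2 fold change 0.41, adjusted p = 0.209). These groups did not overlap either.

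Pola2 had 20.4, 24.98 and 24.5 FPKM in Smad4 KO libraries against 19.3, 18.7 and 16.8 FPKM in controls (log2 fold change 0.33, adjusted p = 0.216). Pold1 had 16.7, 24.7 and 22.9 FPKM in Smad4 KO libraries against 18.7, 15.7 and 16.3 FPKM in controls (log2 fold change 0.31, adjusted p = 0.358). Only Pola2 of this pair had groups that stood apart. Fen1 had 33.3, 51.2 and 43.4 FPKM in Smad4 KO libraries against 33.2, 31.8 and 25.3 FPKM in controls (log2 fold change 0.48, adjusted p = 0.257). Rfc3 had 22.9, 32.7 and 28.1 FPKM in Smad4 KO libraries against 20.6, 22.4 and 18.9 FPKM in controls (log2 fold change 0.41, adjusted p = 0.235). For Fen1 the lowest Smad4 KO library and the highest control were nearly equal. Chaf1a had 14.6, 20.8 and 16.9 FPKM in Smad4 KO libraries against 13.6, 15.1 and 11.4 FPKM in controls (log2 fold change 0.35, adjusted p = 0.307). Chaf1b had 11.4, 17.6 and 16.8 FPKM in Smad4 KO libraries against 11.6, 13.1 and 9.296 FPKM in controls (log2 fold change 0.39, adjusted p = 0.351). Both CAF-1 genes overlapped the controls through Smad4 KO 0. Estimates below 0 were found for Mcm6 (-0.09), Gins4 (-0.04), Pola1 (-0.27), Pcna (-0.14) and Tk1 (-0.07), none of them called.

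The Smad4 KO libraries did not form 1 level. Smad4 KO 0 was the lowest of its group for 40 of 40 members, at a median ratio of 0.926 to the control mean, while Smad4 KO 1 stood at 1.46 and Smad4 KO 2 at 1.31. Smad4 KO 0 was above all controls for 10 members and below all of them for 14, while Smad4 KO 1 was above all controls for 36 and Smad4 KO 2 for 33. The same counts were not taken over all genes, so these only describe the members. On log2(FPKM + 1), the members' median difference from the control mean was -0.0951, 0.52 and 0.38 in Smad4 KO 0, 1 and 2. Over all genes tested it was -0.0079, 0.0096 and 0.0133. The gene of Smad4 KO 0 lowest against the control mean was Pola1, at 3.89, 10.1 and 7.34 FPKM in Smad4 KO 0, 1 and 2 against 7.73, 11.8 and 6.05 FPKM in controls. Without Smad4 KO 0 the median log2 fold change of the members was 0.46 and 39 of 40 were above 0, still with 0 called. Without Smad4 KO 1 the median was 0.16, and without control 2 it was 0.15.

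**Figure D3:**
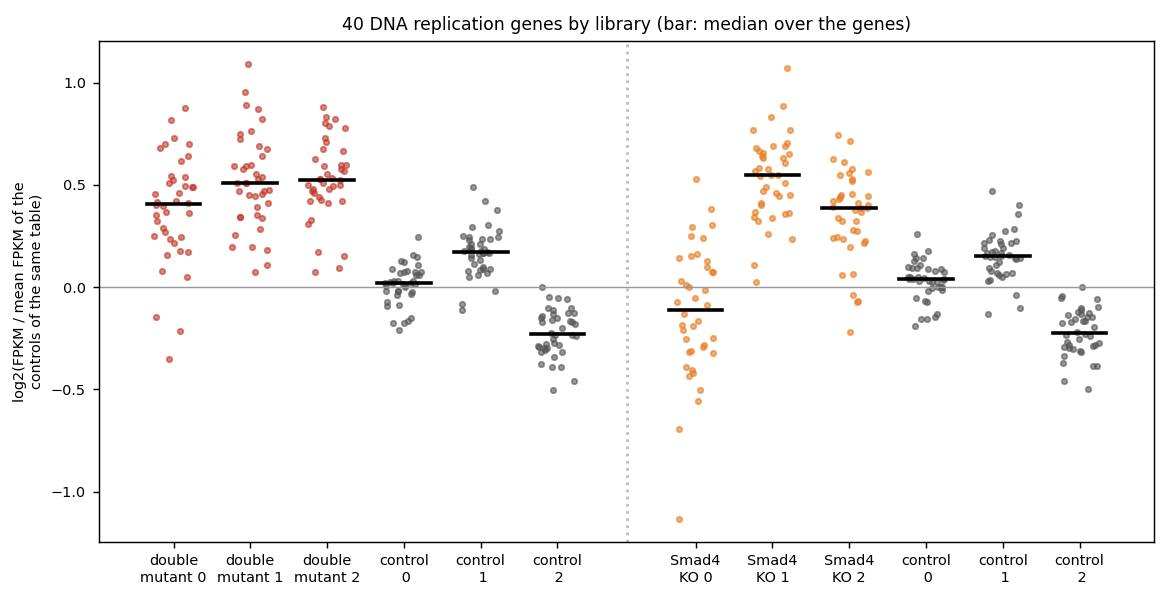
Log2 ratio of each of the 40 replication genes in each library to the mean of the 3 controls of the same table; each point is a gene and the bar is the median over the genes. The 3 double mutants have median ratios of 1.33 to 1.44, while Smad4 KO 0 (0.926) lies apart from Smad4 KO 1 (1.46) and Smad4 KO 2 (1.31).

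The libraries with the most RNA of mature enterocytes had the lowest replication genes. All 12 enterocyte markers (Sis, Alpi, Apoa1, Apoa4, Apob, Fabp1, Fabp2, Lct, Anpep, Mttp, Slc5a1 and Slc51a) were above 1 FPKM in all 9 libraries, and none was at 0. Their summed FPKM was 1205, 2357 and 2233 in double mutants 0, 1 and 2 against 4123, 5669 and 11659 in controls 0, 1 and 2. In the other table it was 14871, 1157 and 2368 in Smad4 KO 0, 1 and 2 against 3999, 5350 and 11178 in controls. The library with the most enterocyte RNA, Smad4 KO 0, was the lowest of its group for every replication gene, and control 2 was the lowest control for 36 of 40. The order was not complete. Control 1 had more enterocyte RNA than control 0 and also a higher median ratio of replication genes, and double mutant 0 had the least enterocyte RNA and the lowest median ratio of its group. With the log2 enterocyte sum as a covariate, a choice made after seeing the data, 0 members were called in the double mutants, with a median log2 fold change of 0.34, and over all genes 0 were called higher and 11 lower. The double mutants and controls do not overlap in that sum, so genotype and enterocyte level cannot be told apart in that fit. With Smad4 KO 0 and control 2 both left out, also chosen after seeing the data, the Smad4 KO members had a median log2 fold change of 0.36 with 0 called.

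**Figure D4:**
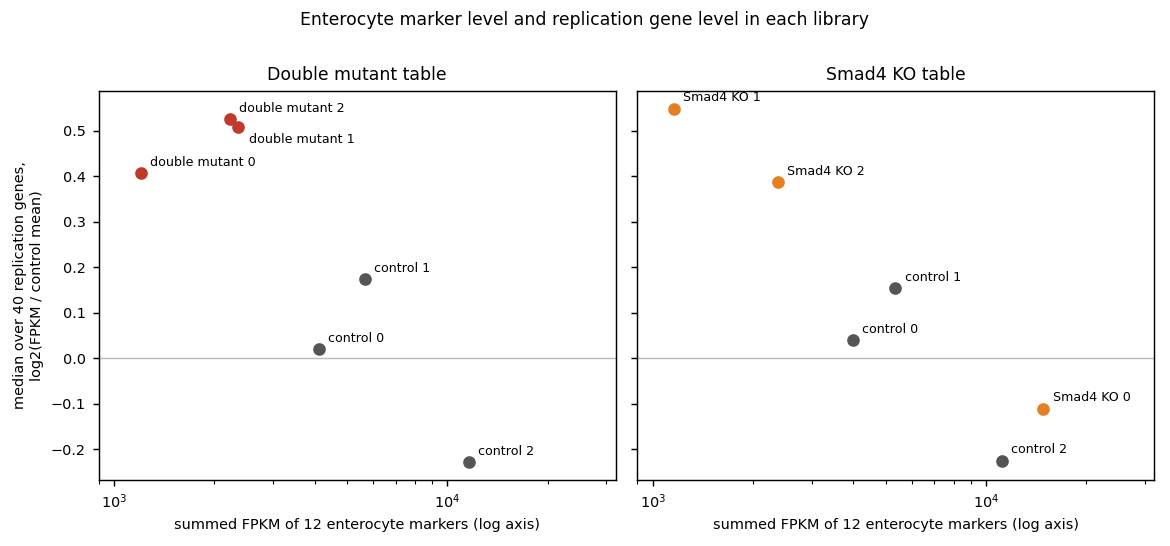
Median log2 ratio of the 40 replication genes to the control mean (vertical) against summed FPKM of 12 enterocyte markers (horizontal, log axis), 1 point per library, for the double mutant table (left) and the Smad4 KO table (right). Smad4 KO 0, with a sum of 14871, sits beside control 2, with 11178, and away from Smad4 KO 1 and 2.

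The marker sums of other cell types also differed between libraries. The 7 Paneth markers, all above 1 FPKM in every library, summed to 91139, 33232 and 48998 FPKM in double mutants 0, 1 and 2 and 9276, 65293 and 127248 FPKM in Smad4 KO 0, 1 and 2, against 154570.03, 77215 and 55718 FPKM in controls 0, 1 and 2 of the double mutant table. The 5 crypt stem cell markers summed to 911, 1318 and 1541 FPKM in double mutants and 281, 986 and 1134 FPKM in Smad4 KO libraries, against 1118, 1633 and 695 FPKM in the same controls. Within the double mutants and within the controls, the stem cell sum followed the order of the libraries' median ratios of replication genes, but not within the Smad4 KO libraries. Smad4 KO 0 was the lowest of all libraries in Paneth and stem cell markers, while control 2 had the lowest median ratio of replication genes. The 10 immune markers summed to 448, 913 and 759 FPKM in double mutants and 1399.7, 546 and 792 FPKM in Smad4 KO libraries, against 969, 605 and 1466 FPKM in those controls. Between 5 and 10 of them reached 1 FPKM in each library. Within the Smad4 KO libraries and within the controls, the immune sum ran opposite to the median ratio of replication genes, with Smad4 KO 0 and control 2 highest, while in the double mutants it did not. The double mutants and controls overlapped in both the stem cell and the immune sum. Goblet markers, 6 of 6 above 1 FPKM, ranged from 9589 to 16243 FPKM in double mutants, from 9439 to 17520 FPKM in Smad4 KO libraries and from 10778 to 20902 FPKM in those controls. The 7 enteroendocrine markers summed to 299.8, 260.5 and 471 FPKM in double mutants and 629, 339 and 332 FPKM in Smad4 KO libraries, against 225, 245 and 321 FPKM in those controls. The 5 tuft cell markers, of which 4 or 5 reached 1 FPKM, summed to between 13.0 and 25.8 FPKM in double mutants and between 13.8 and 23.5 FPKM in Smad4 KO libraries, against 24.5 to 65.8 FPKM in those controls. The part of any of these cell types in the change of the replication genes was not tested.

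The mutant groups were read side by side, because they share their controls and were scaled in separate tables, so the difference between them was not tested. Rrm2 stood at 1.71 times the control mean in double mutants and 1.55 times in Smad4 KO libraries, and Gins3 at 1.55 times in double mutants and 1.54 times in Smad4 KO libraries. For Cdc45 the values were 1.395 times in double mutants and 1.17 times in Smad4 KO libraries, and for Orc6 1.36 times in double mutants and 1.15 times in Smad4 KO libraries. Each role group had a median log2 fold change in the double mutants that can be set beside that in Smad4 KO. Licensing genes had 0.63 in double mutants and 0.39 in Smad4 KO libraries, the helicase activation genes 0.50 in double mutants and 0.28 in Smad4 KO libraries. The polymerases and primase had 0.39 in double mutants and 0.17 in Smad4 KO libraries. The clamp, loader, RPA and Okazaki genes had 0.42 in double mutants and 0.23 in Smad4 KO libraries, and the nucleotide supply genes 0.42 in double mutants and 0.25 in Smad4 KO libraries. The chromatin genes had 0.57 in double mutants and 0.35 in Smad4 KO libraries. Over all 40 members the median was 0.44 in double mutants and 0.27 in Smad4 KO libraries, but 0.46 in the latter without Smad4 KO 0. Smad4 KO 0 was the lowest of its group for all 40 members, so leaving it out raises that median by calculation. Without double mutant 0, which had the lowest median ratio of its group, the double mutant median was 0.49. Whether the difference between the mutant groups rests on Smad4 KO 0 was not tested.

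Other genes of replication also rose in the double mutants. Their list and those of the next paragraphs were chosen, like the members, with earlier results of these data known. They come from the same libraries and are not separate support. Of 45 further replication genes measured, out of 46 listed, 16 were called higher and 0 lower in the double mutants, with a median log2 fold change of 0.30. Over all genes tested 9.39% were called higher and 9.09% lower. Rnaseh2c, a subunit of the enzyme that removes ribonucleotides from DNA, had 63.7, 49.3 and 46.99 FPKM in double mutants against 21.4, 25.4 and 24.5 FPKM in controls (log2 fold change 1.12, SE 0.14, adjusted p = 0.0126). Recql4, a helicase with a part in replication initiation, had 6.997, 5.71 and 6.63 FPKM in double mutants against 2.61, 2.005 and 3.01 FPKM in controls (log2 fold change 1.08, SE 0.15, adjusted p = 0.0136). Both were more than doubled between means and apart in every library. Wdhd1, which ties the helicase to polymerase alpha, had 15.3, 15.1 and 15.8 FPKM in double mutants against 10.9, 9.69 and 10.2 FPKM in controls (log2 fold change 0.54, SE 0.0831, adjusted p = 0.0164). Dna2, a nuclease of long flaps, had 15.96, 16.02 and 18.4 FPKM in double mutants against 9.56, 11.3 and 9.302 FPKM in controls (log2 fold change 0.69, SE 0.11, adjusted p = 0.0172). In Smad4 KO libraries 0 of these 45 were called and the median was 0.14. Rnaseh2c had the smallest p there, at 38.4, 39.1 and 47.1 FPKM in Smad4 KO libraries against 20.8, 23.9 and 23.5 FPKM in controls (log2 fold change 0.84, adjusted p = 0.106).

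Upstream of the replication genes, 8 of 25 E2F and G1/S genes were called higher and 3 lower in the double mutants, with a median log2 fold change of 0.31. Over all genes tested 9.39% were called higher and 9.09% lower, so the share of this list called lower was near that of all genes. Tfdp1, the partner with which E2F factors bind DNA, had 44.8, 46.3 and 49.6 FPKM in double mutants against 31.3, 29.3 and 28.9 FPKM in controls (log2 fold change 0.63, SE 0.0852, adjusted p = 0.0131). E2f4, which acts with the pocket proteins as a repressor in resting cells, had 64.3, 67.3 and 67.02 FPKM in double mutants against 48.4, 48.8 and 47.8 FPKM in controls (log2 fold change 0.45, SE 0.0776, adjusted p = 0.0201). Rb1 and Rbl2, pocket proteins that hold E2F in check, were called lower, as was Tfdp2, a relative of Tfdp1. Rb1 had 11.4, 13.7 and 10.9 FPKM in double mutants against 21.4, 18.97 and 25.9 FPKM in controls (log2 fold change -0.83, SE 0.14, adjusted p = 0.0201). Rbl2, or p130, had 6.597, 8.31 and 7.37 FPKM in double mutants against 12.2, 13.8 and 12.5 FPKM in controls (log2 fold change -0.72, SE 0.11, adjusted p = 0.0164). Every double mutant was below every control for both pocket proteins. In Smad4 KO libraries 0 of 25 were called, with a median of 0.16, and Rbl2 had the smallest p, at 7.83, 7.43 and 7.74 FPKM in Smad4 KO libraries against 11.8, 13.1 and 11.98 FPKM in controls (log2 fold change -0.61, adjusted p = 0.106). The inhibitor Cdkn1a, named after its values were seen, had 241, 48.05 and 61.5 FPKM in Smad4 KO 0, 1 and 2 against 58.8, 53.9 and 72.8 FPKM in controls. It was high in Smad4 KO 0, where the replication genes stood at a median ratio of 0.926 to the control mean. In control 2 that ratio was lower, 0.856, without such a level of Cdkn1a. A link between them was not tested.

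Among 26 mitosis genes, 6 were called higher and 0 lower in the double mutants, and all 26 estimates were above 0 with a median log2 fold change of 0.39. The mitotic kinase Plk1 had 50.3, 52.5 and 52.9 FPKM in double mutants against 32.3, 30.5 and 23.9 FPKM in controls (log2 fold change 0.83, SE 0.13, adjusted p = 0.0164). Incenp, a subunit of the chromosomal passenger complex, had 42.2, 44.5 and 42.2 FPKM in double mutants against 25.8, 30.8 and 23.5 FPKM in controls (log2 fold change 0.67, SE 0.12, adjusted p = 0.0195). For both, every double mutant was above every control. Cdc20, the activator of the anaphase-promoting complex, had 46.2, 46.4 and 42.2 FPKM in double mutants against 26.8, 35.1 and 24.3 FPKM in controls (log2 fold change 0.64, SE 0.15, adjusted p = 0.03503). Birc5, or survivin, had 96.6, 95.5 and 87.9 FPKM in double mutants against 59.7, 74.96 and 57.01 FPKM in controls (log2 fold change 0.55, SE 0.13, adjusted p = 0.0367). In Smad4 KO libraries 0 of 26 were called and the median was 0.17. Incenp had the smallest p there, at 30.4, 41.05 and 35.3 FPKM in Smad4 KO libraries against 25.02, 29.02 and 22.6 FPKM in controls (log2 fold change 0.46, adjusted p = 0.1997). The share called higher in the double mutants was 52.5% for the replication genes and 35.6% for the further replication genes. It was 32.0% for the E2F and G1/S genes and 23.1% for the mitosis genes. The median log2 fold changes, in that order of lists, were 0.44, 0.30, 0.31 and 0.39, an order unlike that of the shares. The median SE was 0.14, 0.13, 0.13 and 0.18, largest for the mitosis genes. Over all genes tested, 9.39% were called higher and 9.09% lower. No test set these lists against each other.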

How the data were processed

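Crypts were freed from the jejunum in 3 mM EDTA and collected through a filter of 70 micron, per the labels' protocols, and sequenced with a version 2 TruSeq kit, which does not mark strand. The authors deposited FPKM values, fragment numbers scaled by transcript length and library size, in 2 tables of 23951 genes. Per the submitters' processing notes, TopHat2 2.1.1, Cuffnorm 2.2.1, Cuffdiff 2.2.1 and the mm9 build were used; the annotation and the filters are not given in the sources used here. Genes are named by the tables' symbols, and coordinates belong to the GRCm38.p6 promoters of RefSeq.

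The fits, 1 per table, were made with limma 3.58.1 (R 4.3.3) on log2(FPKM + 1), a scale that understates changes of low genes. Genes had to average 1 FPKM or more over the 6 libraries of a table. Moderation followed the mean-variance trend; the tests were two-sided, with Benjamini-Hochberg adjustment over all genes tested, and calls were made at an adjusted p below 0.05. An exact permutation test of 3 libraries against 3 cannot go below 0.1 and was not used. The script was tested on simulated data. Members and lists were chosen with earlier results of these data known. Values per library were given for called members and for up to 2 members per role with the smallest p, and from each other list for up to 4 called genes, or 1 where none was called; those of Mcm6, Pola1, Pcna and Rrm1 were added after they were seen. The Smad4 KO and double mutant tables were not tested against each other. Other pseudocounts, filters, scalings and covariates, a replicate block, a joint fit and leaving out libraries were tried. The level of 1 marker in the immune list is not reported here.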

Additional observations from a re-analysis of the deposited data

How the results depend on the processing

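In the double mutants all 40 members kept a log2 fold change above 0 under the other pseudocounts and scalings, without a filter, without the trend, with the block, with sex and in the joint fit, as did 38 of 38 with a mean of at least 5 FPKM. The members called numbered 22 and 21 with pseudocounts of 0.1 and 5, and 20 at a mean of at least 5 FPKM. Over all genes, 9.6%, 9.26% and 11.2% were called higher in these fits. Under both median-of-ratios and quantile scaling 23 members were called, where 9.88% and 10.8% of all genes were called higher. Without the trend 20 members were called against 8.45% of all genes called higher. With sex it was 19 members against 6.81%, and in the joint fit 15 members against 8.19%. Without a filter, 13 members, 8 further replication genes, 6 E2F and G1/S genes and 2 mitosis genes were called. Of 17987 genes in that fit, 771 (4.29%) were called higher and 621 lower. The list counts in this section take calls in either direction, so those of E2F and G1/S genes may include lower calls. In the main fit of the double mutants, 8 E2F and G1/S genes were called higher and 3 lower. With the enterocyte level as a covariate, 0 members and 0 genes of each other list were called. The joint fit called 10 further replication genes in the double mutants and, in Smad4 KO, 1 member, 4 further replication genes and 3 E2F and G1/S genes. Of 11857 genes in the joint fit, 971 were called higher and 781 lower in the double mutants. In Smad4 KO 285 (2.40%) were called higher and 187 lower. With sex, 5 E2F and G1/S genes were called in the double mutants, where 801 of 11762 genes were called higher and 718 lower. The cause of these differences was not tested. Whether replicate numbers pair the samples could not be settled from the values, since deviations were taken from means of only 3 libraries. Same-numbered mutant and control libraries correlated at 0.07, 0.13 and 0.04 in the double mutant table and at -0.11, 0.22 and -0.10 in the Smad4 KO table. Differently numbered libraries lay between -0.11 and 0.03 in the double mutant table and between -0.15 and 0.21 in the Smad4 KO table. Each double mutant correlated most with its same-numbered control. The replicate block left 8 members and 7 E2F and G1/S genes called in the double mutants, and 0 members in Smad4 KO. Of 11762 genes, 732 (6.22%) were called higher and 870 lower in the double mutants with the block.

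With 1 library left out, the calls in either direction in the double mutants ranged from 0 to 15 for the members. They ranged from 0 to 14 for the further replication genes, from 0 to 6 for E2F and G1/S genes and from 0 to 14 for mitosis genes. A group reduced to 2 libraries was assumed to vary like the others. Genes whose log2 fold change crossed 0 in these fits ranged in the double mutants from -0.013 to 0.38 for Mcm6, -0.0067 to 0.25 for Pcna and -0.16 to 0.28 for Pola1. In Smad4 KO they ranged from -0.32 to 0.18 for Mcm6, -0.093 to 0.33 for Gins2, -0.11 to 0.088 for Gins4, -0.22 to 0.012 for Pcna, -0.030 to 0.37 for Rfc4, -0.53 to 0.055 for Pola1, -0.060 to 0.31 for Prim2, -0.025 to 0.31 for Pold2, -0.028 to 0.29 for Pole, -0.059 to 0.32 for Lig1, -0.14 to 0.35 for Tyms, -0.27 to 0.14 for Tk1 and -0.037 to 0.39 for Uhrf1. With the enterocyte covariate the estimate became -0.017 for Gins2 and -0.057 for Pola1 in the double mutants. In Smad4 KO it became -0.0785 for Gins2, -0.017 for Rfc4, -0.078 for Prim2, -0.032 for Pold2, -0.064 for Lig1, -0.14 for Tyms and -0.085 for Uhrf1, and with sex -0.0032 for Tyms. With Smad4 KO 0 and control 2 left out it was 0.0075 for Mcm6, 0.047 for Gins4 and 0.073 for Tk1. None of the genes in this paragraph was called in the comparison concerned. Depth is not known from FPKM, so its limit on these values cannot be stated.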
